A study of Mus musculus with 12 samples.

Results

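The 12 rhabdoid tumors of the series were ranked by the level of Ptprc. The 6 tumors chosen by the highest level (Ptprc-high) were set against the 6 chosen by the lowest (Ptprc-low). All 12 tumors entered the comparison. Ptprc encodes CD45, a tyrosine phosphatase on the surface of nearly all leukocytes. The groups were therefore made from a measured value and not from a label, and Ptprc itself is given as a description without a test. Every tumor arose in a P0-CreC;Smarcb1flox/flox mouse on the FVB/N background, in which Cre under the protein zero promoter removes Smarcb1 from neural crest cells and the Schwann cell lineage. Cells outside that lineage, such as leukocytes and endothelial cells, keep the gene. No normal tissue was sequenced, and the ages of the mice are not given in the labels used here. By location, the labels name 4 retro-orbital tumors, 3 cheek tumors, 3 tumors of the meninges, 1 vestibular nerve tumor and 1 trigeminal nerve tumor. Levels are in RPKM (fragments scaled to transcript length and sequencing depth), so that genes of different length can be set side by side.

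Leukocytes enter tumors from the blood as monocytes, lymphocytes and granulocytes, and monocytes can become macrophages in the tissue. Tissues also hold resident macrophages, which in the brain are the microglia. Myeloid cells depend on the transcription factor PU.1, encoded by Spi1, whose binding sites lie close to the start of many genes used by leukocytes. Macrophages take up dying cells, present antigen on MHC class II molecules and release chemokines that draw in more leukocytes.

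The core PU.1 motif GAGGAAGT was searched on both strands in the 250 bases before the start of each gene. It stood in 2.79% of 27025 promoters (RefSeq, GRCm38.p6), in 3 of the 20 promoters found for the pan-leukocyte genes (Cd37, Vav1 and Inpp5d) and in 2 of the 23 found for the macrophage genes (C1qc and Pf4). The 4 stretches that follow show the motif in genes whose levels are given further on, read 5′ to 3′ on the strand of the gene, with the motif in capitals as GAGGAAGT or, where it lies on the opposite strand, as ACTTCCTC.
Inpp5d: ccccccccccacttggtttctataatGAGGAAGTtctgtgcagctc
Vav1: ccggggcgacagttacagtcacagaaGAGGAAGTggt
C1qc: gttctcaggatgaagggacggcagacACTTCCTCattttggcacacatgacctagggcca
Pf4: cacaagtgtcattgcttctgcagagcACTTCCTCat
The stretch of Inpp5d is chr1:87620266-87620311 on the plus strand, that of Vav1 chr17:57279063-57279099 on the plus strand, that of C1qc chr4:136893076-136893135 on the minus strand and that of Pf4 chr5:90772399-90772434 on the plus strand. A match describes these letters only. Of these genes, Vav1 did not overlap between the groups (9.57 to 20.8 RPKM in the Ptprc-high and 3.72 to 8.43 in the Ptprc-low tumors), while Inpp5d (12.0 to 26.8 against 6.70 to 21.7) and C1qc (176 to 534 against 96.3 to 251) overlapped. Pf4, the platelet factor 4 chemokine, spread alike in both (1.05 to 53.1 against 1.53 to 43.7).

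Ptprc stood at 51.5 RPKM in retro-orbital tumor 4, 46.0 in meninges tumor 2, 33.3 in retro-orbital tumor 2, 24.1 in retro-orbital tumor 1, 23.8 in meninges tumor 3 and 19.0 in meninges tumor 1, which closed the Ptprc-high group. The Ptprc-low group began with retro-orbital tumor 3 at 17.2 and went on with the trigeminal nerve tumor at 15.1, cheek tumors 1, 2 and 3 at 13.7, 10.1 and 9.81 and the vestibular nerve tumor at 6.93. The tumors on either side of the division, at 19.0 and 17.2 RPKM, thus lay close together. All 3 meninges tumors were in the Ptprc-high group, all 3 cheek tumors and both single nerve tumors were in the Ptprc-low group, and only the retro-orbital tumors were on both sides (3 and 1). Location and Ptprc group can therefore hardly be told apart. The summed RPKM of 25 other pan-leukocyte genes put the same 6 tumors on top, from 408 to 837 in the Ptprc-high against 166 to 401 in the Ptprc-low group, and among the retro-orbital tumors alone from 431 to 837 against 401. In bulk RNA, fewer leukocytes and less RNA per leukocyte cannot be told apart.

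**Figure D1:**
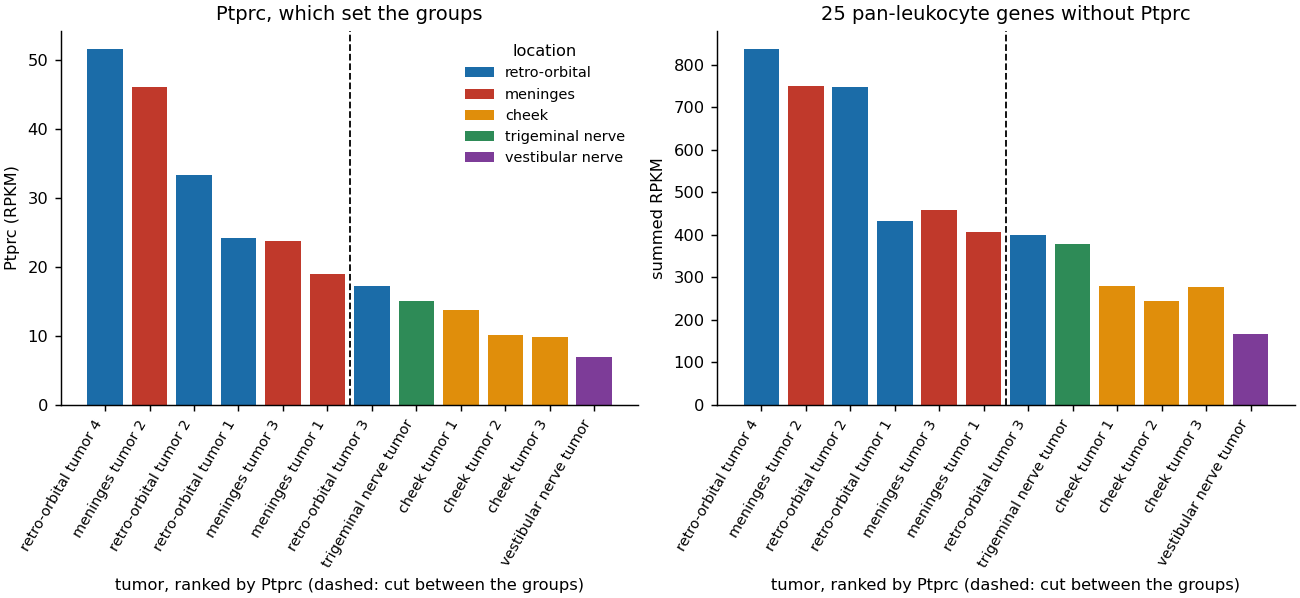
Ptprc (left, RPKM) and the summed RPKM of the 25 pan-leukocyte genes without Ptprc (right) in each of the 12 tumors, in the order of Ptprc and coloured by location; the dashed line divides the groups. Both fall from retro-orbital tumor 4 (51.5 and 837) to the vestibular nerve tumor (6.93 and 166), and the tumors on either side of the line lie close together.

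The ranges of depth overlapped between the groups. The fragment totals, recovered from the steps between low values, ran from 17800557 to 41230614 in the Ptprc-high and from 13206168 to 57128422 in the Ptprc-low tumors (exact permutation test, two-sided, p = 0.797), and the number of genes at 1 RPKM or more ran from 12706 to 14528 and from 12575 to 14178 (exact permutation test, p = 0.69). Cheek tumors 2 and 3 were the most alike pair (r = 0.984 across genes), and the first part of their identifiers is the same, as it is for retro-orbital tumor 3 and the trigeminal nerve tumor and for cheek tumor 1 and meninges tumor 1. No pair from 1 location came within counting noise (chi-square per degree of freedom 144 over 163 genes for this pair, 511 to 5516 for the others), so that no library was taken as a repeat deposit. Whether such tumors came from 1 mouse is not stated, and with cheek tumors 2 and 3 averaged as 1 tumor the adjusted test again called no gene. Retro-orbital tumor 3 stood apart in the Ptprc-low group, with Ltf, the iron-binding protein lactoferrin, at 2344 RPKM.

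Among 15042 genes tested, limma called none at an adjusted p under 0.05 in either direction (0.0%), and the smallest adjusted p was 0.193. At an unadjusted p under 0.05, 988 genes (6.57%) were higher and 598 (3.98%) lower in the Ptprc-high tumors, so that 62.3% of these were higher. That split was 40.6% higher when each tumor was centred on its median, 52.1% after quantile normalization and 46.3% with location as a covariate. In 91 genes (0.605%) every Ptprc-high tumor lay above every Ptprc-low tumor, and in 50 (0.332%) below. The median log2 fold change of all genes tested was 0.03. The differences described from here on are therefore levels and ranges of single genes that did not pass the adjusted test. The fit on Ptprc as a continuous level, given further on, did call genes, with the value that made the groups as its predictor.

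The pan-leukocyte genes were higher in the Ptprc-high tumors as a list. Ptprc is itself a gene of leukocytes, so their levels describe what the ranking picks and are no separate result. The same holds for genes of other leukocytes further on, such as microglia, T cells and dendritic cells, and for MHC class II. All 24 tested genes had a higher mean log2 level, with a median log2 fold change of 0.89. Of them, 17 had an unadjusted p under 0.05 and 7 did not overlap between the groups. Evi2b, the other gene of the list, stayed under the filter of 1 RPKM in 3 tumors. With location as a covariate, a contrast that rests on the 4 retro-orbital tumors, the median was 0.58 and 4 genes had an unadjusted p under 0.05.

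Cd52, a short glycopeptide on lymphocytes and macrophages (chr4:134082448-134095082 on GRCm38), ran from 48.6 through a median of 84.0 to 120 RPKM in the Ptprc-high and from 11.4 through 21.4 to 48.4 in the Ptprc-low tumors. The groups just missed each other, with retro-orbital tumor 2 lowest above and the trigeminal nerve tumor highest below. The means differed 3.36-fold (log2 fold change 1.84 ± 0.37 SE, n = 6 and 6, adjusted p = 0.193). Ptpn6, the phosphatase SHP-1 that dampens signalling in blood cells (chr6:124720707-124738714), ran from 19.3 through 31.4 to 43.9 against 9.83 through 12.1 to 18.3 RPKM, 2.39-fold by the means (log2 1.16 ± 0.22, adjusted p = 0.193). Its highest Ptprc-low value was that of cheek tumor 1, close to retro-orbital tumor 1. Hcls1, an actin-binding protein of blood cells, ran from 21.0 to 43.1 against 9.02 to 17.7 RPKM without overlap (log2 1.01 ± 0.22, adjusted p = 0.209). Cd48, an adhesion molecule of leukocytes, ran from 7.83 to 16.7 against 3.32 to 6.28 RPKM, also without overlap (log2 1.05 ± 0.22, adjusted p = 0.207).

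The 30 macrophage genes, which as genes of leukocytes also describe what the ranking by Ptprc picks, had a median log2 fold change of 0.76. Their means were higher in 26 and lower in 4, and 16 had an unadjusted p under 0.05, all of them higher. Under the location covariate the median was 0.70 and 3 genes had an unadjusted p under 0.05. Fcgr1, the high-affinity receptor for immunoglobulin G (chr3:96282909-96293969), ran from 15.3 through 19.3 to 36.5 RPKM in the Ptprc-high and from 5.10 through 6.51 to 12.6 in the Ptprc-low tumors, 2.94-fold by the means (log2 1.43 ± 0.27, adjusted p = 0.193). Emr1, which encodes F4/80, ran from 19.0 through 30.3 to 54.7 against 10.2 through 15.3 to 18.4 RPKM (log2 1.07 ± 0.27, adjusted p = 0.257). These 2 were the macrophage genes whose groups did not overlap. Aif1, the calcium-binding protein IBA1, ran from 17.3 to 53.4 against 8.96 to 21.1 RPKM, and 5 of 6 Ptprc-high tumors lay above every Ptprc-low tumor. Csf1r, the receptor that keeps macrophages alive, ran from 50.0 through 89.7 to 146 against 26.4 through 46.8 to 70.6 RPKM and overlapped (log2 0.96 ± 0.33, adjusted p = 0.348). Spi1 ran from 12.8 to 48.8 against 7.13 to 24.8 RPKM and overlapped broadly (log2 0.56 ± 0.35, adjusted p = 0.612).

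The Ptprc-high tumors were not alike in the macrophage genes they held. Retro-orbital tumors 2 and 4 had 348 and 318 RPKM of Mrc1, the mannose receptor CD206, while the other 4 Ptprc-high tumors ran from 16.5 to 66.8 and the Ptprc-low tumors from 24.1 to 73.0. Cd163, the scavenger receptor for haemoglobin, followed the same order, with 172 and 61.4 RPKM in these 2 tumors, at most 0.987 in the other Ptprc-high tumors and 1.29 to 16.1 in the Ptprc-low tumors. F13a1, a clotting factor subunit of monocytes and macrophages, stood at 432 and 80.9 RPKM there, but it also reached 70.0 and 66.5 in cheek tumors 2 and 3. Lyz2, the lysozyme of myeloid cells, reached 4444 RPKM in retro-orbital tumor 2 and ran from 203 to 988 in the other Ptprc-high tumors and from 237 to 935 in the Ptprc-low tumors. For these genes the group means therefore rest on 1 or 2 tumors, and the log2 fold changes were small beside their errors (Mrc1 0.47 ± 0.76, Cd163 0.03 ± 1.21, adjusted p 0.874 and 0.997).

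Of 10 microglia genes 9 were tested, with a median log2 fold change of 0.61. At an unadjusted p under 0.05, 2 were higher, beside 6.57% of all genes tested. P2ry13, a purine receptor, ran from 4.82 to 16.3 against 1.99 to 6.86 RPKM (log2 0.96 ± 0.29, adjusted p = 0.309). Tmem119 reached 58.7 RPKM in meninges tumor 2, was 7.93 in retro-orbital tumor 4 and ran from 6.78 to 21.6 in the Ptprc-low tumors. The tumors with the 2 highest Ptprc levels thus stood at opposite ends of the Ptprc-high group for this gene.

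The summed level of 20 T cell genes ran from 8.72 to 81.8 RPKM in the Ptprc-high and from 5.34 to 52.5 in the Ptprc-low tumors. Of these genes 15 passed the filter, with a median log2 fold change of 0.56 (-0.47 with location as a covariate). At an unadjusted p under 0.05, 2 were higher, beside 6.57% of all genes tested. That count was 9 without retro-orbital tumor 3, 5 without retro-orbital tumor 2, 4 without meninges tumor 1, and 1 without any of cheek tumors 2 and 3, meninges tumors 2 and 3, retro-orbital tumor 4 or the vestibular nerve tumor. Cd3g, a chain of the T cell receptor complex, ran from 0.532 through 4.58 to 8.63 in the Ptprc-high and from 0 through 0.587 to 1.47 RPKM in the Ptprc-low tumors (log2 1.47 ± 0.45, adjusted p = 0.309). It was listed at 0 in cheek tumors 2 and 3, and retro-orbital tumor 2 and meninges tumor 1 lay within the Ptprc-low range. Cd3e reached at most 3.06 and 1.41 RPKM in the 2 groups. Of the 15 B cell and plasma cell genes, 11 did not pass the filter. Igj, the joining chain of secreted antibodies, stood at 240 RPKM in meninges tumor 2, at 8.58 in retro-orbital tumor 3 and at no more than 2.11 in the other 10 tumors. Only 5 of 15 NK and cytotoxic genes passed the filter, with a median log2 fold change of 0.55. Of these, 1 gene, the receptor Klrk1, was higher at an unadjusted p under 0.05, beside 6.57% of all genes tested. With counts this small single tumors decided them. The NK count was 3 without retro-orbital tumor 1, 2 without retro-orbital tumor 2, cheek tumor 1, meninges tumor 1 or the trigeminal nerve tumor, and 0 without cheek tumor 2 or 3, meninges tumor 2 or 3, retro-orbital tumor 4 or the vestibular nerve tumor.

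The 11 tested neutrophil genes had a median log2 fold change of 0.00 and none had an unadjusted p under 0.05 in limma, against 1 without cheek tumor 2 or without retro-orbital tumor 1 or 3. With location as a covariate the median was -1.37, and Lcn2, the siderophore-binding protein of neutrophil granules and epithelium, was lower in the Ptprc-high tumors (log2 -9.18, adjusted p = 0.0312 in limma). Lcn2 was 2600 RPKM in retro-orbital tumor 3, the only Ptprc-low tumor in that contrast, and at most 105 elsewhere. S100a8, a calcium-binding protein of neutrophils, ran from 1.11 through 3.12 to 42.9 in the Ptprc-high and from 1.69 through 10.4 to 128 RPKM in the Ptprc-low tumors, highest in retro-orbital tumor 3. Ltf stood at 2344 RPKM in that tumor and at 368 in cheek tumor 1, and between 1.46 and 3.79 in the other 10 tumors. Lcn2 and Ltf made up most of the summed neutrophil level of retro-orbital tumor 3, 5249 RPKM. Mpo, Elane, Ngp, Prtn3 and Cxcr2 did not pass the filter. Which cells the Lcn2 and Ltf RNA came from was not tested. Csf3r, the receptor for the granulocyte growth factor, ran from 2.40 to 9.23 against 1.71 to 8.98 RPKM (log2 0.71 ± 0.39, adjusted p = 0.561). Ly6g is not among the gene rows used here. Mast cell genes had a median of -0.44 over 6 tested genes, none at an unadjusted p under 0.05, and Tpsab1, a mast cell tryptase, was highest in retro-orbital tumor 3 at 49.9 RPKM. Without that tumor the mast cell median was 0.14, and without cheek tumor 3 the count was 1. The location covariate put the median at -3.58.

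Dendritic cell genes had a median log2 fold change of 0.65 (0.07 with location as a covariate) over 11 tested genes. At an unadjusted p under 0.05, 4 were higher, beside 6.57% of all genes tested. That count was 2 without cheek tumor 2 or 3, meninges tumor 3, retro-orbital tumor 1 or 4 or the vestibular nerve tumor. Irf8, a transcription factor of dendritic cells and monocytes, ran from 12.4 through 15.7 to 33.3 against 3.99 through 6.11 to 15.7 RPKM (log2 1.13 ± 0.35, adjusted p = 0.313), with retro-orbital tumor 3 and the trigeminal nerve tumor inside the Ptprc-high range. The 8 tested osteoclast genes had a median of 0.11, or -0.43 without retro-orbital tumor 2 and -0.02 without the trigeminal nerve tumor. At an unadjusted p under 0.05, 2 of them were higher, Dcstamp and Tnfrsf11a, beside 6.57% of all genes tested. That count was 0 without retro-orbital tumor 4 or the vestibular nerve tumor and 1 without any other tumor save cheek tumor 1 and meninges tumors 1 and 3. Ctsk, the collagen-degrading cathepsin of osteoclasts, was 805 RPKM in retro-orbital tumor 2 and ran from 1.71 to 10.1 in the other Ptprc-high tumors and from 4.95 to 116 in the Ptprc-low tumors.

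MHC genes and interferon-stimulated genes were higher in the Ptprc-high tumors in their medians, with wide ranges. The 10 tested MHC class II genes had a median log2 fold change of 1.04, and all 10 means were higher. At an unadjusted p under 0.05, 2 were higher, beside 6.57% of all genes tested. That count was 6 without retro-orbital tumor 2, 4 without retro-orbital tumor 3, and 1 without retro-orbital tumor 1 or 4, cheek tumor 2 or 3 or meninges tumor 2 or 3. H2-Aa, the alpha chain of the I-A molecule, ran from 58.5 through 283 to 931 against 2.55 through 87.5 to 447 RPKM (log2 2.56 ± 1.17, adjusted p = 0.471). Retro-orbital tumor 3 reached 447, above 4 of the 6 Ptprc-high tumors, and cheek tumors 2 and 3 were at 2.55 and 3.90. Ciita, the regulator of class II transcription, ran from 0.639 to 10.6 against 0.226 to 2.22 RPKM (log2 1.21 ± 0.45, adjusted p = 0.389). The 14 tested MHC class I genes, which include proteasome subunits for peptide processing, had a median of 0.88. At an unadjusted p under 0.05, 2 were higher, beside 6.57% of all genes tested. That count was 6 without retro-orbital tumor 2, 5 without the trigeminal nerve tumor, 0 without cheek tumor 2 or 3, meninges tumor 2 or retro-orbital tumor 4, and 1 without cheek tumor 1, meninges tumor 1 or 3, retro-orbital tumor 1 or the vestibular nerve tumor. With location as a covariate the medians of class II and class I were -0.76 and -0.41. Retro-orbital tumor 3 was the only Ptprc-low tumor in that contrast, and the cause of the change of sign was not tested.

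All 26 interferon-stimulated genes had a higher mean level in the Ptprc-high tumors, with a median log2 fold change of 1.16. At an unadjusted p under 0.05, 5 were higher, beside 6.57% of all genes tested. Gbp7, an interferon-induced GTPase, ran from 14.1 through 31.0 to 48.7 against 3.45 through 14.4 to 16.8 RPKM (log2 1.49 ± 0.41, adjusted p = 0.277). Retro-orbital tumor 2, at 14.1, was the only Ptprc-high tumor within the Ptprc-low range. The count of 5 genes was 22 without retro-orbital tumor 2, 11 without cheek tumor 1, and 3 without cheek tumor 3 or without retro-orbital tumor 4. With location as a covariate the median was -0.07.

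**Figure D2:**
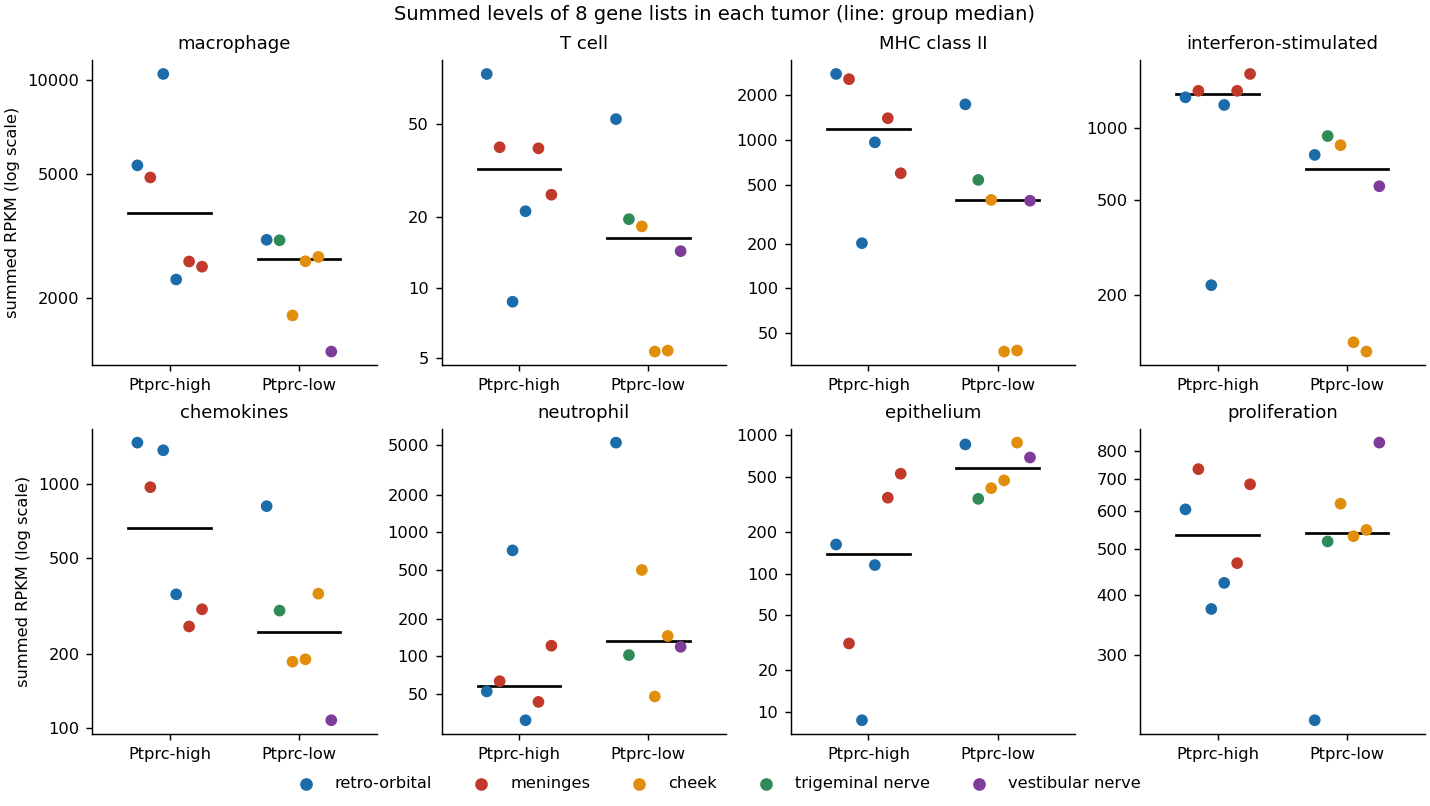
Summed RPKM of 8 gene lists (log axes that differ between panels) in the 6 Ptprc-high and 6 Ptprc-low tumors, 1 point a tumor, coloured by location, with the group median as a line. Retro-orbital tumor 2 is the low Ptprc-high point for the interferon-stimulated genes at 219 and the high point for the macrophage genes at 10446. Retro-orbital tumor 3 is the high point of the neutrophil list at 5249, most of it from Lcn2 and Ltf.

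Chemokines and their receptors held 2 genes without overlap between the groups. Of these, Ccr2 is a gene of monocytes, so its levels too describe what the ranking by Ptprc picks and are no separate result. Ccr2, the receptor that leads monocytes out of the bone marrow (chr9:124101950-124113557), ran from 3.62 through 9.66 to 36.9 in the Ptprc-high and from 0.736 through 1.88 to 3.56 RPKM in the Ptprc-low tumors. The means differed 8.57-fold (log2 2.20 ± 0.51, adjusted p = 0.228), and meninges tumor 1 at 3.62 and cheek tumor 1 at 3.56 nearly touched. Cxcl14, a chemokine of epithelium and stroma (chr13:56288643-56296551), ran from 9.16 through 13.9 to 455 against 2.33 through 3.47 to 4.94 RPKM (log2 2.84 ± 0.83, adjusted p = 0.29). Its mean rests on meninges tumor 2 at 455 and retro-orbital tumor 2 at 95.3, the other 4 Ptprc-high tumors lying between 9.16 and 17.2.

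Of 18 tested chemokines 6 and of 8 tested receptors 2 had an unadjusted p under 0.05, all higher, beside 6.57% of all genes tested. The medians of chemokines and receptors were 0.78 and 0.62 (-0.35 and 0.89 with location as a covariate). Ccl12, which attracts monocytes, ran from 37.4 through 61.4 to 169 against 5.29 through 23.4 to 49.2 RPKM (log2 1.85 ± 0.52, adjusted p = 0.277). Cxcl16, which is also a scavenger receptor, ran from 38.4 to 94.9 against 18.7 to 55.4 RPKM (log2 1.08 ± 0.29, adjusted p = 0.27). Of 14 complement genes 3 had an unadjusted p under 0.05, all higher, beside the same 6.57%, and the count was 6 without retro-orbital tumor 3. The complement median was 0.74, or -0.71 with location as a covariate. C3ar1, the receptor for the C3a fragment, ran from 18.3 to 50.6 against 7.74 to 24.4 RPKM (log2 1.20 ± 0.32, adjusted p = 0.27). Of 15 tested immune checkpoint genes 4 were higher and 1 lower at an unadjusted p under 0.05, beside 6.57% and 3.98% of all genes tested. Cd86, the costimulatory ligand of antigen-presenting cells, ran from 6.23 through 8.06 to 12.5 against 3.04 through 3.61 to 6.31 RPKM (log2 0.90 ± 0.23, adjusted p = 0.256), with meninges tumor 1 just under the trigeminal nerve tumor. The 16 tested growth factors and cytokines had a median of 0.33 (-0.77 with location as a covariate). Of these, 2 were higher at an unadjusted p under 0.05, beside 6.57% of all genes tested. That count was 0 or 1 without any tumor save retro-orbital tumor 3 and the trigeminal nerve tumor.

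**Figure D3:**
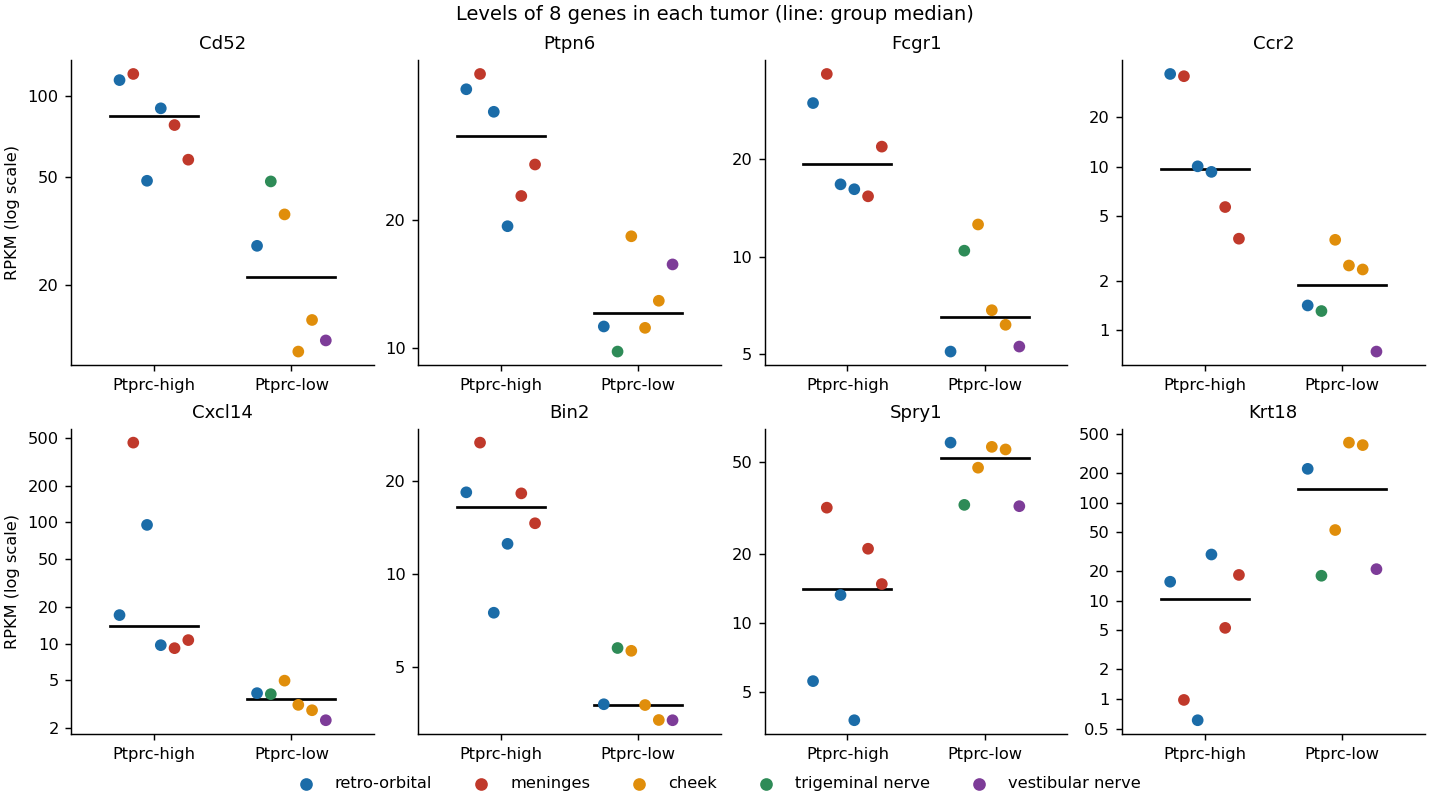
RPKM of 8 genes (log axes that differ between panels) in the 6 Ptprc-high and 6 Ptprc-low tumors, 1 point a tumor, coloured by location, with the group median as a line. Cd52, Ptpn6, Fcgr1, Ccr2, Cxcl14 and Bin2 lie higher and Spry1 lower in the Ptprc-high tumors without overlap, while Krt18 overlaps.

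Among the genes of other cell types, all 10 epithelial genes had a lower mean level in the Ptprc-high tumors, with a median log2 fold change of -1.56. At an unadjusted p under 0.05, 2 were lower, beside 3.98% of all genes tested. Krt18, a keratin of simple epithelium (chr15:102028180-102032027), ran from 0.607 through 10.5 to 29.6 in the Ptprc-high and from 18.0 through 137 to 408 RPKM in the Ptprc-low tumors (log2 -3.65 ± 0.99, adjusted p = 0.277). The values above 200 RPKM were those of cheek tumors 2 and 3 and retro-orbital tumor 3, and the nerve tumors at 18.0 and 21.0 lay within the Ptprc-high range. The summed level of the epithelial genes ran from 8.70 to 527 in the Ptprc-high and from 347 to 884 RPKM in the Ptprc-low tumors. Without meninges tumor 1, the tumor with 527, the count of epithelial genes at an unadjusted p under 0.05 was 5, and without any 1 of cheek tumor 1, meninges tumor 2 or the retro-orbital tumors it was 1. The epithelial median was -4.51 with location as a covariate. The part of epithelium in the other differences was not tested.

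Col3a1, a fibrillar collagen, was lower in the Ptprc-high tumors, at 291 through 447 to 706 against 435 through 1296 to 2207 RPKM (log2 -1.41 ± 0.35, adjusted p = 0.253). Retro-orbital tumor 3 at 435 was the only Ptprc-low tumor within the Ptprc-high range. The 15 fibroblast and matrix genes had a median of 0.12. Col3a1 was the only 1 of them at an unadjusted p under 0.05, beside 3.98% of all genes tested that were lower. That count was 2 without meninges tumor 2 or 3 or the vestibular nerve tumor, and the median was -0.39 without retro-orbital tumor 2. None of the 17 endothelial genes had an unadjusted p under 0.05 in limma, with a median of 0.21. Pecam1, the endothelial adhesion molecule CD31, ran from 7.41 through 13.2 to 25.8 against 6.65 through 14.6 to 29.6 RPKM. Without retro-orbital tumor 2, 5 endothelial genes had an unadjusted p under 0.05. Of 11 pericyte, 13 skeletal muscle and 13 astrocyte and oligodendrocyte genes tested, none had an unadjusted p under 0.05, with medians of 0.26, -0.17 and 0.75. Without retro-orbital tumor 2, 1 pericyte and 2 glial genes did, and without retro-orbital tumor 3, 2 pericyte genes. The muscle median was 0.21 without cheek tumor 2, 0.13 without cheek tumor 3 and 0.07 without meninges tumor 2. Under the location covariate these medians took the other sign, at -0.69 for pericyte, 1.90 for muscle and -1.83 for glial genes, and so did the endothelial median at -1.0 and the fibroblast median at -0.22. Gfap, the glial filament, ran from 0.309 to 260 against 0.324 to 128 RPKM. Of 11 tested neuron genes 3 were higher at an unadjusted p under 0.05, beside 6.57% of all genes tested. Among them was Syt1, a synaptic vesicle protein, at 0.303 to 32 against 0.220 to 5.61 RPKM. Nefm, a neurofilament, was 91.7 and 67.6 RPKM in cheek tumors 2 and 3 and at most 4.30 elsewhere. The neuron count was 1 without cheek tumor 1 or 3 or meninges tumor 3 and 5 without retro-orbital tumor 3. Red cell genes were under the filter save Alas2 (log2 0.21 ± 0.29, adjusted p = 0.85).

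**Figure D4:**
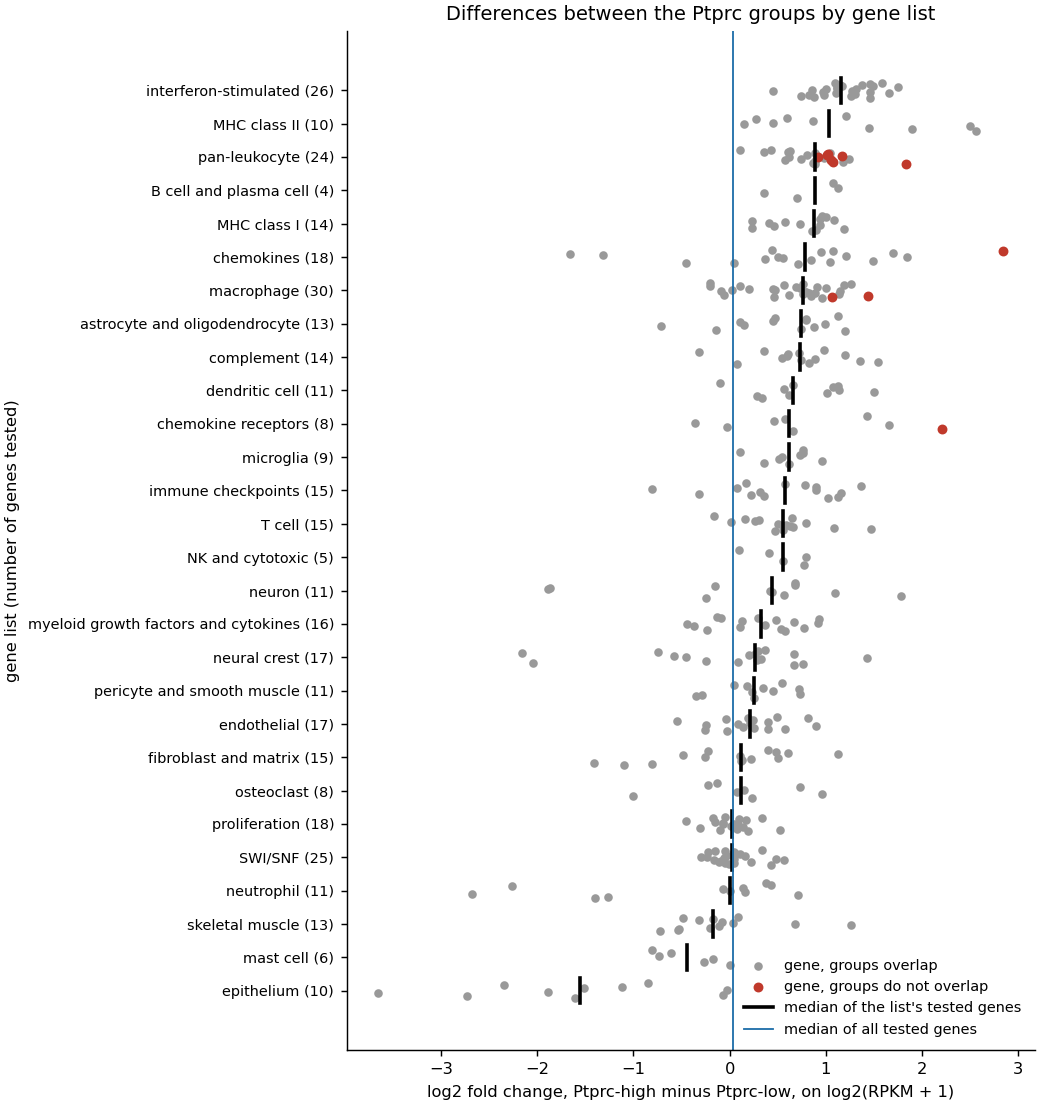
Log2 fold change between the Ptprc-high and Ptprc-low tumors of each tested gene of 28 lists (1 point a gene, with the number of genes tested beside the list's name), the median of each list in black and that of all 15042 genes as a blue line at 0.03. The medians run from -1.56 for epithelium to 1.16 for the interferon-stimulated genes, and red points, whose groups do not overlap, lie in the pan-leukocyte, macrophage, chemokine and chemokine receptor lists.

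The 18 proliferation genes had a median log2 fold change of 0.03, equal to that of all genes, and none had an unadjusted p under 0.05 in limma, against 3 without retro-orbital tumor 3, where the median was -0.18. With location as a covariate the median was 0.92 and 10 had an unadjusted p under 0.05. Mki67, the marker of dividing cells, ran from 30.4 through 52.5 to 63.1 against 18.6 through 45.3 to 63.0 RPKM (log2 0.19 ± 0.29, adjusted p = 0.864). Smarcb1, the gene removed by Cre, ran from 2.90 through 4.94 to 6.31 in the Ptprc-high and from 1.70 through 3.44 to 4.72 RPKM in the Ptprc-low tumors (log2 0.43 ± 0.23, adjusted p = 0.552). In 4 of 6 Ptprc-high tumors it lay above every Ptprc-low tumor, and the value covers the whole gene and not the deleted part alone. The 25 tested SWI/SNF genes had a median of 0.03. Smarcc2 was the 1 gene higher at an unadjusted p under 0.05, beside 6.57% of all genes tested (34.4 to 52.5 against 23.5 to 46.7 RPKM, log2 0.56 ± 0.18, adjusted p = 0.325). That count was 2 without retro-orbital tumor 1 or 2 or the vestibular nerve tumor. Of 17 tested neural crest genes 1 was higher and 2 lower at an unadjusted p under 0.05, beside 6.57% and 3.98% of all genes tested. The neural crest median was 0.26, or -0.11 without meninges tumor 3 and -0.99 with location as a covariate. Msx1, a homeobox gene of cranial neural crest, reached 24.5 and 25.7 RPKM in cheek tumors 2 and 3 and at most 1.20 in the Ptprc-high tumors (log2 -2.05 ± 0.65, adjusted p = 0.319). Without retro-orbital tumor 2, 5 neural crest genes had an unadjusted p under 0.05.

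Outside the lists, the genes without overlap between the groups were named after their values had been seen. Bin2, a membrane-bending protein of leukocytes (chr15:100641077-100669553), ran from 7.48 through 16.4 to 26.5 in the Ptprc-high and from 3.36 through 3.78 to 5.75 RPKM in the Ptprc-low tumors (log2 1.64 ± 0.26, adjusted p = 0.193). Without retro-orbital tumor 2, where it was lowest among the Ptprc-high tumors, it passed the adjusted limma test, with a log2 fold change of 1.83 (adjusted p = 0.0344). Both the gene and the tumor left out were picked after the values were seen, so this p-value carries little weight. Cyth4, an exchange factor for ARF proteins in blood cells, ran from 21.1 through 43.8 to 59.6 against 8.22 through 15.6 to 19.2 RPKM (log2 1.38 ± 0.27, adjusted p = 0.193). As genes of blood cells, Bin2 and Cyth4 also describe what the ranking by Ptprc picks and are no separate result. Kmo, an enzyme of tryptophan breakdown, ran from 0.636 to 8.18 against 0 to 0.240 RPKM, and Thbd, the thrombin receptor thrombomodulin, from 5.95 to 39.1 against 2.67 to 5.29 RPKM. Kmo reached 1 RPKM in Ptprc-high tumors only, so it passed the filter through that group alone and its separation is no test. Tnr, an extracellular matrix protein of the nervous system, ran from 1.40 to 36.4 against 0.347 to 1.07 RPKM, with 36.4 in retro-orbital tumor 1 alone and at most 4.81 in the other tumors.

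Lower without overlap was Spry1, an inhibitor of receptor tyrosine kinase signalling (chr3:37639947-37644598), at 3.78 through 14 to 31.7 in the Ptprc-high and 32.1 through 52.0 to 60.7 RPKM in the Ptprc-low tumors (log2 -1.85 ± 0.42, adjusted p = 0.221). Meninges tumor 2 at 31.7 and the vestibular nerve tumor at 32.1 nearly touched. Taf9, a subunit of the general transcription factor TFIID, ran from 23.7 through 33.0 to 42.2 against 48.0 through 55.0 to 67.6 RPKM (log2 -0.77 ± 0.15, adjusted p = 0.193). Taf5l, a subunit of a histone acetyltransferase complex, ran from 7.89 to 14.4 against 17.9 to 25 RPKM (log2 -0.71 ± 0.16, adjusted p = 0.218). Defb1, an antimicrobial peptide of epithelium, was at most 0.119 RPKM in the Ptprc-high tumors and ran from 0.167 through 2.35 to 13.7 in the Ptprc-low tumors, with retro-orbital tumor 3 highest. With location as a covariate its log2 fold change was -3.80, in a contrast with retro-orbital tumor 3 as the only Ptprc-low tumor. Osr2, a zinc finger factor of craniofacial mesenchyme, ran from 0.119 to 0.777 against 1.01 to 4.29 RPKM. Defb1 and Osr2 reached 1 RPKM in Ptprc-low tumors only, so they passed the filter through that group alone and their separation is no test.

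When Ptprc entered as a continuous level, on log2(RPKM + 1), 216 of the 15042 genes (1.44%) rose with it and 33 (0.219%) fell in limma at an adjusted p under 0.05. Among them were 17 of the 24 tested pan-leukocyte genes and 13 of the 30 macrophage genes, all rising. Leukocyte genes share their source cells with Ptprc, so these calls describe what the Ptprc level tracks and are no separate result. In no list were 178 of the rising and 32 of the falling genes. Hcls1 rose by 0.75 ± 0.07 (SE) log2 units for each log2 unit of Ptprc (adjusted p = 0.000415), Ccr2 by 1.59 ± 0.21 (adjusted p = 0.00583) and Col3a1 fell by 0.90 (adjusted p = 0.0474). Eya1, a transcription cofactor of the cranial placodes, fell with Ptprc by 1.68 (adjusted p = 0.0233). No T cell, neutrophil, interferon-stimulated, MHC, endothelial, epithelial or proliferation gene of the lists passed. Without retro-orbital tumor 4, the tumor with the highest Ptprc, 44 genes rose and 5 fell, and without meninges tumor 2, the next, 54 and 6. Fewer also passed without the vestibular nerve tumor (72 and 18), cheek tumor 2 (87 and 9), cheek tumor 3 (109 and 12) or cheek tumor 1 (112 and 17). The same held without meninges tumor 3 (150 and 30), the trigeminal nerve tumor (159 and 24) or meninges tumor 1 (172 and 29). More passed without retro-orbital tumor 2 (299 and 36), retro-orbital tumor 3 (286 and 57) or retro-orbital tumor 1 (248 and 59).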

How the data were processed

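RNA of 12 mouse tumors was depleted of ribosomal RNA and sequenced from stranded libraries in 1 pool. Per the labels and the study's methods, the authors aligned reads to mm10 with STAR, counted those mapped once with HTSeq over RefSeq genes, and 1 RPKM value per gene and tumor was deposited by the authors. The labels also name bcl2fastq 2.17. Of 24060 rows, 27 carry a date for a symbol and were kept but not named. Groups followed the rank of Ptprc RPKM. Genes with at least 1 RPKM in 3 tumors were fitted on log2(RPKM + 1) with limma 3.58.1 in R 4.3.3 (trended, robust prior variance, Benjamini-Hochberg over all genes tested). This scale understates changes of low genes. The fit was tested on simulated data, drawn for each gene on its own. At 6 against 6 tumors, 41.8% of simulated log2 changes of 1 passed an adjusted p under 0.05, 79.1% of 2 and 98.5% of 4. Many differences of the size described here would thus be missed. Fragment totals (13206168 to 57128422) were recovered from the steps between low values with GENCODE M21 lengths. The labels do not say which tumors came from separate mice. The main fit took the 12 tumors as independent, so its p-values measure the spread between these tumors and make no allowance for tumors that share a mouse. Single values were compared by an exact permutation test over 924 labellings. The tumors, the gene lists and the tests were chosen with earlier results of these data known. Named by rule are up to 4 genes per list with the smallest adjusted p, genes in no list that passed the adjusted test (none did), Smarcb1 and the defining markers Csf1r, Cd3e, Ly6g, Pecam1 and Mki67. All other genes named, including list members in which a tumor stood out, genes in no list and those of the Ptprc slope, were chosen after their values were seen. Some genes that the rule names are not reported here. Alternatives were another pseudocount, filters, scalings, group sizes, covariates, a block, a continuous Ptprc level and leaving out each tumor. Promoter sequences came from RefSeq on GRCm38.p6, and gene positions from GENCODE M21 on GRCm38.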

Additional observations from a re-analysis of the deposited data

Results flagged for a closer look

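In each group of 6 tumors, a gene was singled out where the gap between the highest or lowest tumor and its neighbour, on log2(RPKM + 1), passed the 95% limit of Dixon's test as a share of the group's whole range. Of 260 gene and group combinations screened, 18 met this, where chance gives about 1 in 20. That share does not hold for all of them, since some of the genes, such as Tnr, Cyth4 and Taf5l, were chosen after their values were seen. Retro-orbital tumor 3 was the highest of the Ptprc-low tumors, with the gap as a share of the range, for Batf3 0.797, Hdc 0.729, Igj 0.856, Tpsab1 0.656 and Tpsb2 0.751. Retro-orbital tumor 2 was the highest of the Ptprc-high tumors, with the gap as a share of the range, for Acp5 0.636, Ctsk 0.752 and S100a8 0.653. Retro-orbital tumor 3 was the lowest of the Ptprc-low tumors, with the gap as a share of the range, for Cdk1 0.704 and Snai2 0.63. The vestibular nerve tumor was the lowest of the Ptprc-low tumors, with the gap as a share of the range, for Cyth4 0.679 and Tnfrsf11a 0.758. The trigeminal nerve tumor was the highest of the Ptprc-low tumors, with the gap as a share of the range, for Taf5l 0.64. Cheek tumor 1 was the highest of the Ptprc-low tumors, with the gap as a share of the range, for Dcstamp 0.636. Retro-orbital tumor 4 was the highest of the Ptprc-high tumors, with the gap as a share of the range, for Hdc 0.631. Meninges tumor 2 was the highest of the Ptprc-high tumors, with the gap as a share of the range, for Igj 0.802. Meninges tumor 1 was the highest of the Ptprc-high tumors, with the gap as a share of the range, for Krt14 0.857. Retro-orbital tumor 1 was the highest of the Ptprc-high tumors, with the gap as a share of the range, for Tnr 0.679. No difference between these tumors and the others was tested, and no explanation of it was weighed.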

How the results depend on the processing

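The counts of genes higher and lower in the Ptprc-high tumors at an adjusted p under 0.05, 0 and 0, were 4 and 4 for the 4 highest against the 4 lowest tumors, 14 and 37 with location as a covariate and 216 and 33 with a slope on Ptprc. They ran from 0 to 1 in each direction when each tumor was left out, with Bin2 higher without retro-orbital tumor 2 and Eya1 lower without the trigeminal nerve tumor. They were 0 and 0 with a pseudocount of 0.1, no filter, 5 RPKM in 3 tumors, quantile normalization, median centring, plain eBayes, groups by the pan-leukocyte sum, an adjusted p of 0.01 and cheek tumors 2 and 3 averaged, an alternative chosen after seeing the data, like the slopes without each tumor. The genes higher at an unadjusted p under 0.05, 988, ran from 689 to 1206 when each tumor was left out. The 598 lower ones ran from 385 to 802, and were 930 for 4 against 4 tumors, 1340 with location as a covariate, 1027 with median centring and 964 with the slope; the cause was not tested. The shared first part of the identifier as a block (correlation 0.697) called 0 and 0, with 1100 and 750 at an unadjusted p under 0.05. No paired analysis was possible because the labels give no replicate numbers and only 1 shared identifier part (cheek tumor 1 and meninges tumor 1) spans both groups. The location contrast rests on 3 retro-orbital tumors against 1. Most list medians it moves stand beside the lists. Of the others, the B cell median went from 0.88 to 0.06, NK from 0.55 to 0.22 and immune checkpoints from 0.57 to 0.10. The neuron median went from 0.44 to 0.0055, osteoclast from 0.11 to 0.30 and microglia from 0.61 to 0.55. SWI/SNF went from 0.03 to -0.11, and Alas2, the tested red cell gene, from 0.21 to 1.01. Low RPKM values, as of Cd3g and Kmo, rest on few fragments.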
